A study of Mus musculus with 16 samples.

Results

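The 10 genes Nr2f1, Bhlhe41, Foxo1, Foxo3, Rbl2, Btg1, Btg2, Txnip, Klf9 and Gas1, all linked to tumour cell dormancy or reversible cell cycle arrest, were followed through the 16 RNA-seq libraries of the study. They were taken by gene symbol, as 10 of the 49139 rows with a symbol in each of the count tables, and every one of the 10 was found. Quiescence is a reversible exit from the cell cycle, and a dormant tumour cell is one that persists in this state without dividing. It is held by transcription factors that raise cyclin-dependent kinase inhibitors (nuclear receptors, forkhead factors), by pocket proteins that shut E2F target genes, and by proteins that shorten growth-promoting mRNAs or limit glucose uptake. In mammary and other carcinomas these genes are studied for cells that outlast treatment or immune attack.

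The libraries came from 4T07, a mouse mammary carcinoma line, sorted out of tumours in the mammary fat pad of C57BL/6J x Balb/cJ hybrid females. GFP cells and mCherry cells of mixed tumours, begun from 250000 cells with both colours in equal share, were each sequenced from 3 tumours of mice given PD1KO Jedi T cells, which attack cells bearing GFP, on day 7, and from 3 tumours of mice given them on day 15. Tumours were taken 7 days after the T cells. The controls were mCherry cells of 4 tumours grown without GFP cells or Jedi T cells. No harvest day or number of injected cells was at hand for the control tumours. GFP cells of a tumour without Jedi T cells were not analysed here, so the effect of carrying GFP and that of T cell attack cannot be told apart in any difference between the colours. The day 7 libraries are run 1 and all others run 2, so day and run cannot be told apart.

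Libraries held 9413075 to 14537317 counts for day 7 GFP cells and 12944212 to 19972744 for day 7 mCherry cells. They held 21185071 to 24882753 for day 15 GFP cells, 21834071 to 22249941 for day 15 mCherry cells and 24369605 to 32811621 for controls. Levels are given as CPM (counts relative to the library's total, scaled by TMM within each run), differences as log2 fold changes with SE, and n counts tumours. Tumours carry the numbers of their count columns: day 7 tumours are 2 to 4, and day 15 tumours 1 to 3. Day 7 tumour 4 stood apart: gene counts of its mCherry library gave a chi-square per degree of freedom against the other day 7 mCherry libraries of 77.2 and 80.4, where those others gave 9.4 between themselves, and its GFP library gave 23.1 and 23.8, where the others gave 4.94. The regulators were therefore also fitted without tumour 4 on day 7. These results are given where this changes a call, turns a direction or moves a value by more than 1.5 times. Other named genes, gene lists and host cell markers were not examined in this way. Whether their day 7 calls hold without tumour 4 was not tested.

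GFP cells were set against mCherry cells of the same tumour to ask whether cells that survived T cell attack differ in these regulators from untargeted neighbours. The regulators did not move as one group. Under day 7 injection, 5 of the 9 regulators that could be tested passed an adjusted p of 0.05 (edgeR quasi-likelihood test with tumour as a block, Benjamini-Hochberg adjustment over all genes), with Btg1 and Klf9 higher and Foxo1, Txnip and Btg2 lower in GFP cells. Over all 14578 genes tested on day 7, 18.2% passed, with 8.89% higher and 9.33% lower. Under day 15 injection, 5 of 10 passed, with Nr2f1, Rbl2 and Btg1 higher and Foxo1 and Gas1 lower, against 19.5% of 14260 genes tested (8.94% higher and 10.6% lower). Among genes of at least 10 CPM, a mean that all regulators but Bhlhe41 and Gas1 reached in each group, the shares called were 21.6% on day 7 and 23.4% on day 15. On day 7 the colours did not overlap in CPM for 6 of the 9 regulators, against 34.2% of all genes, and on day 15 for 4 of the 10, against 36.4%. The median log2 fold change of the regulators was −0.23 on day 7 and 0.09 on day 15, against −0.004 and 0.006 over all genes. Leaving out tumour 2, 3 or 4 left 4, 2 and 6 calls on day 7, beside 11.9%, 7.77% and 30.8% of all genes. Leaving out tumour 1, 2 or 3 left 4, 6 and 3 on day 15, beside 17.7%, 17.5% and 12% of all genes. Foxo1, lower on both days, and Btg1, higher on both, were the only members called on both days; without a filter on low counts, Nr2f1 and Klf9 were called higher on both as well. In bulk libraries such as these, fewer cells of a type and less RNA per cell cannot be told apart.

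**Figure D1:**
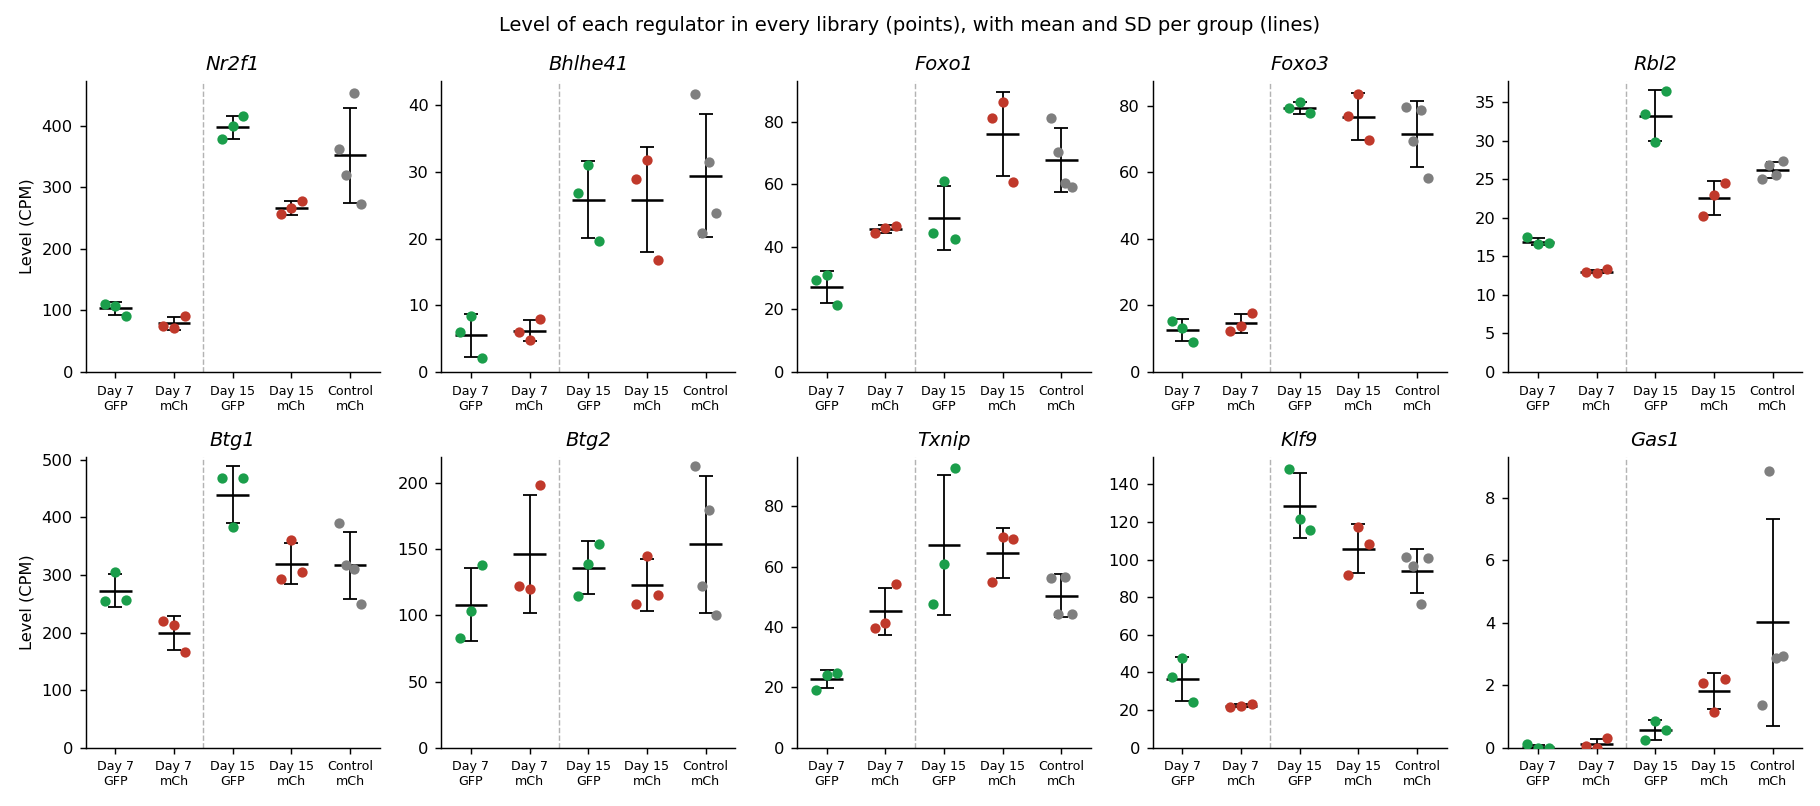
Level (CPM, linear axis from 0) of each of the 10 regulators in every library, with the mean and SD of each group; the dashed line parts run 1 (day 7) from run 2. Foxo1 was lower and Rbl2 higher in GFP than in mCherry cells in each of the 6 tumours, while Foxo3 and Bhlhe41 overlapped between the colours on both days.

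Nr2f1 (ENSMUSG00000069171, chr13:78188973-78199757, minus strand of GRCm38) encodes an orphan nuclear receptor that, in human head and neck carcinoma models, drives dormancy through retinoid and SOX9 programmes. In GFP cells of tumours injected on day 15 it stood at 377, 399 and 415 CPM, against 256, 266 and 278 CPM in mCherry cells. All 3 GFP libraries lay above all 3 mCherry libraries. The log2 fold change was 0.57 ± 0.08 (SE, n = 3 tumours; adjusted p = 0.00103, edgeR). Under day 7 injection, GFP cells of tumours 2, 3 and 4 held 111, 108 and 91.4 CPM, against 74.5, 71.1 and 91.0 CPM in mCherry cells. The log2 ratio within a tumour was 0.56 to 0.58 in the 3 tumours injected on day 15 and 0.57 and 0.60 in day 7 tumours 2 and 3, but 0.005 in day 7 tumour 4. The fitted day 7 value of 0.39 ± 0.13 missed the threshold (adjusted p = 0.0605). It passed without a filter on low counts (adjusted p = 0.0221), and without tumour 4 it was 0.58 ± 0.09 (adjusted p = 0.000135).

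Reads of Nr2f1 cannot be fully told from those of A830082K12Rik, a long non-coding RNA gene on the opposite strand whose exons share 123 bases with those of Nr2f1, since the strand setting of the counting is not given. Its counts were at most 18.0% of those of Nr2f1 in any library. A830082K12Rik had a log2 fold change of 0.54 ± 0.09 on day 15 (adjusted p = 0.00229) and 0.29 ± 0.21 on day 7 (adjusted p = 0.383). It was named after its values were seen.

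Bhlhe41 (ENSMUSG00000030256, chr6:145858243-145865558, minus strand) encodes a transcriptional repressor of the circadian clock family that acts beside NR2F1 in TGF-beta2-induced dormancy of human carcinoma cells. It did not pass the test on either day. On day 15, GFP cells held 26.8, 31.1 and 19.6 CPM, against 28.9, 31.8 and 16.8 CPM in mCherry cells, and the order of the tumours by level was the same in both colours. On day 7 its level was low, at 6.00, 8.41 and 2.07 CPM in GFP cells, against 5.96, 4.73 and 7.95 CPM in mCherry cells, from 31 to 120 counts. The day 7 log2 fold change of −0.28 ± 0.43 became 0.43 ± 0.27 without tumour 4 (adjusted p = 0.252).

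Among other genes of the NR2F1, retinoid and TGF-beta2 axis, 3 of 16 tested rose and 1 fell on day 7, and 2 of 18 rose and 2 fell on day 15, with medians of 0.18 and 0.15. Tgfbr3, which encodes the coreceptor betaglycan that presents TGF-beta2, rose on both days. It averaged 38.9 ± 21.5 CPM in GFP cells, against 13.9 ± 3.5 CPM in mCherry cells on day 7 (SD, n = 3), and 67.5 ± 14.9 CPM and 29.8 ± 11.4 CPM on day 15, with adjusted p of 0.00458 and 0.000198 (edgeR). Axl, a receptor tyrosine kinase, rose on day 7 (log2 fold change 0.58 ± 0.10), and Thbs1, which encodes the matrix protein thrombospondin-1, rose on day 15 (0.97 ± 0.11). The genes that fell, named after their values were seen, were Tgfbr1 on both days and Bmpr2 on day 15. Tgfbr1, a TGF-beta receptor gene, had −0.54 ± 0.10 on day 7 (adjusted p = 0.0065) and −0.45 ± 0.08 on day 15 (adjusted p = 0.00345, edgeR). Bmpr2 had −0.34 ± 0.08 on day 15 (adjusted p = 0.0134, edgeR). Bhlhe40, the paralogue of Bhlhe41, had −0.03 ± 0.15 on day 7 and −0.11 ± 0.10 on day 15.

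Foxo1 (ENSMUSG00000044167, chr3:52268336-52353221, plus strand) and Foxo3 (ENSMUSG00000048756, chr10:42181841-42276755, minus strand) encode forkhead transcription factors that AKT keeps out of the nucleus and that, when active, raise cell cycle inhibitors, stress defence and autophagy genes. The RNA level does not show where the protein is. Foxo1 was lower in GFP cells in all 6 tumours. On day 7 it stood at 29.4, 31.0 and 21.5 CPM in GFP cells, against 44.3, 45.9 and 46.6 CPM in mCherry cells. On day 15 it stood at 44.4, 61.1 and 42.4 CPM in GFP cells, against 81.3, 86.1 and 60.7 CPM in mCherry cells. The colours did not overlap on day 7, and on day 15 the highest GFP library lay just above the lowest mCherry library, which is of another tumour. The log2 fold change was −0.76 ± 0.14 on day 7 (adjusted p = 0.00548) and −0.63 ± 0.10 on day 15 (adjusted p = 0.00191, edgeR).

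Foxo3 was not called on either day. On day 15 GFP cells held 79.3, 81.1 and 77.6 CPM, against 76.8, 83.6 and 69.7 CPM in mCherry cells, a log2 fold change of 0.05 ± 0.08. On day 7 GFP cells held 15.4, 13.2 and 9.00 CPM, against 12.2, 13.7 and 17.9 CPM in mCherry cells. The groups overlapped on both days, and the day 7 value of −0.23 ± 0.24 became 0.14 ± 0.19 without tumour 4 (adjusted p = 0.62). Foxo4, the paralogue, had 0.26 ± 0.49 on day 7, where it lay near 1.4 CPM in GFP cells, against 1.3 CPM in mCherry cells, and 0.00 ± 0.08 on day 15.

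Of 17 tested genes in the list of FOXO paralogues and known FOXO targets, 3 rose and 3 fell on day 7, and 4 rose and 3 fell on day 15. Gadd45a, a growth arrest and DNA damage gene, fell on both days, to 116 ± 24.6 CPM in GFP cells, against 256 ± 36.5 CPM in mCherry cells, on day 7 (SD, n = 3) and to 360.3 ± 47.8 CPM, against 565 ± 14.6 CPM, on day 15. Pik3ip1, an inhibitor of PI3K, rose on both days (1.08 ± 0.12, adjusted p = 0.000298, and 0.65 ± 0.13, adjusted p = 0.00586, edgeR). So did Klf2, a Krüppel-like factor of quiescent T cells and endothelium (0.52 ± 0.13, adjusted p = 0.0214, and 0.76 ± 0.11, adjusted p = 0.00103, edgeR). The list thus held called genes in both directions on each day.

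The FOXO binding motif GTAAACA was searched on both strands in the 250 bases before each start in RefSeq's annotation of GRCm38.p6, since FOXO proteins are themselves among the regulators. All 10 regulators had an entry, with 11 windows in all. The motif stood in windows of 4 of them (Txnip, Klf9, Btg1 and a second, internal start of Nr2f1), and in 3.17% of all 32851 windows. In capitals are the motif or its reverse complement TGTTTAC, which lies 121 to 115 bases before the start of Txnip, 100 to 94 before that of Klf9 and 204 to 198 before that of Btg1. The Txnip window is also exonic sequence of the non-coding gene Gm15441 on the opposite strand, in GENCODE M21, and the other windows shown lie in no annotated gene. These windows, each on the plus strand, are shown because they belong to a member lower, and members higher, in GFP cells on day 7.
Txnip (chr3:96557707-96557956): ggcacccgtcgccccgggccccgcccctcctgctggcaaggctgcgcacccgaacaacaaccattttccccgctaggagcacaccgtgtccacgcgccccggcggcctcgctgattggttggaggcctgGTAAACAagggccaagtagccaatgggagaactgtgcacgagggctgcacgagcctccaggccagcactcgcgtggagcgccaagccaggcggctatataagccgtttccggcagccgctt
Klf9 (chr19:23140976-23141225): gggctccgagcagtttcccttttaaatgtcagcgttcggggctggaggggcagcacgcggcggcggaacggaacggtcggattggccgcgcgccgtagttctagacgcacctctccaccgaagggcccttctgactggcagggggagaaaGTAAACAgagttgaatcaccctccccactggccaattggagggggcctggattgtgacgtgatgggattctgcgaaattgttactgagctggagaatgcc
Btg1 (chr10:96616751-96617000): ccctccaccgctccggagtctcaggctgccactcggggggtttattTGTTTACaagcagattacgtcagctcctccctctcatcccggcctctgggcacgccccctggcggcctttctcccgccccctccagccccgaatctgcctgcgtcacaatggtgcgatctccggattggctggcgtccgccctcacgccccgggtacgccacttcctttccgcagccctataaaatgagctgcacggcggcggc
A match is a string of letters, not a shown binding site. On day 7, Txnip was called lower and Klf9 and Btg1 higher in GFP cells, so the 3 genes did not share a direction. Of 3 other motifs searched in the same way, the E-box CACGTG stood in the Bhlhe41 window (6.02% of all windows), the CHR element TTTGAA in that of Rbl2 (5252 of all 32851 windows), and the GAS element TTCNNNGAA in that of Klf9 (7.02%).

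Rbl2 (ENSMUSG00000031666, chr8:91070057-91123844, plus strand) encodes p130, the pocket protein that with E2F4 and the MuvB core forms the DREAM complex, which silences cell cycle genes in quiescent cells. It was higher in GFP cells in all 6 tumours. On day 15 GFP cells held 33.4, 29.8 and 36.4 CPM, against 20.2, 22.9 and 24.5 CPM in mCherry cells. On day 7 GFP cells held 17.5, 16.6 and 16.7 CPM, against 12.9, 12.9 and 13.3 CPM in mCherry cells. The colours did not overlap on either day. The log2 fold change passed on day 15, at 0.55 ± 0.10 (adjusted p = 0.00557), and not on day 7, at 0.38 ± 0.16 (adjusted p = 0.128), where it rests on 163 to 260 counts per library.

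Rbl2 lies across Aktip, a gene on the opposite strand whose exons share 693 bases with those of Rbl2 and whose counts reached 332% of those of Rbl2, so that the share of reads that belongs to each is uncertain. Aktip, named after its values were seen, stood at 36.3 ± 4.1 CPM in GFP cells, against 23.2 ± 3.0 CPM in mCherry cells on day 15 (SD, n = 3), a log2 fold change of 0.64 ± 0.11 (adjusted p = 0.00386, edgeR). On day 7 it was 0.42 ± 0.14 (adjusted p = 0.0624). The values for Rbl2 and Aktip thus ran side by side on both days, and which gene the shared reads came from was not tested.

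In the RB family and DREAM list, 1 of 17 genes rose and none fell on day 7, and 6 fell and none rose on day 15 (medians −0.01 and −0.24). The gene that rose on day 7 was E2f4, the E2F partner of p130, at 68.7 ± 4.1 CPM in GFP cells, against 40.1 ± 2.4 CPM in mCherry cells (SD, n = 3; adjusted p = 0.0013, edgeR). Mybl2 and Foxm1, transcription factors of the cell division programme that replaces DREAM in cycling cells, fell on day 15 by 1.06 ± 0.13 and 0.78 ± 0.09 on the log2 scale, and Mybl2 had −0.44 ± 0.16 on day 7 (adjusted p = 0.0922). Of 20 proliferation genes, 19 fell on day 7 and 20 on day 15, with none higher. Those of smallest p on day 7 were Cdc45, of the replication helicase, at −0.92 ± 0.11, and the mitotic kinase gene Plk1, at −1.20 ± 0.15. On day 15 they were Bub1, a spindle checkpoint kinase gene, at −1.14 ± 0.11, and Kif20a, a mitotic kinesin gene, at −1.29 ± 0.12. Mki67, which encodes the proliferation antigen Ki-67, fell to 107 ± 64.6 CPM in GFP cells, against 182 ± 46.6 CPM in mCherry cells, on day 7 and to 166 ± 35.6 CPM, against 386 ± 84.1 CPM, on day 15 (SD, n = 3). Its ratio of GFP to mCherry cells was nearest to 1 in day 7 tumour 4, at 0.769, against 0.414 and 0.489 in day 7 tumours 2 and 3 and 0.325 to 0.563 on day 15.

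Of the 7 CDK inhibitor genes, 4 were tested. Cdkn1a, which encodes p21, rose on both days (0.45 ± 0.12, adjusted p = 0.0298, and 0.68 ± 0.13, adjusted p = 0.00588, edgeR). Cdkn2c, which encodes p18, fell on both (−0.48 ± 0.11 and −0.45 ± 0.09), and Cdkn2d, which encodes p19, fell on day 7 (−0.68 ± 0.14). Cdkn1b, which encodes p27, the inhibitor most often tied to NR2F1 and FOXO, passed on neither day. It stood at 17.5 ± 2.2 CPM in GFP cells, against 20.4 ± 4.7 CPM in mCherry cells on day 7 (SD, n = 3). On day 15 it stood at 228 ± 31.1 CPM in GFP cells, against 196 ± 13.3 CPM in mCherry cells, so the direction of the means differed between days.

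**Figure D2:**
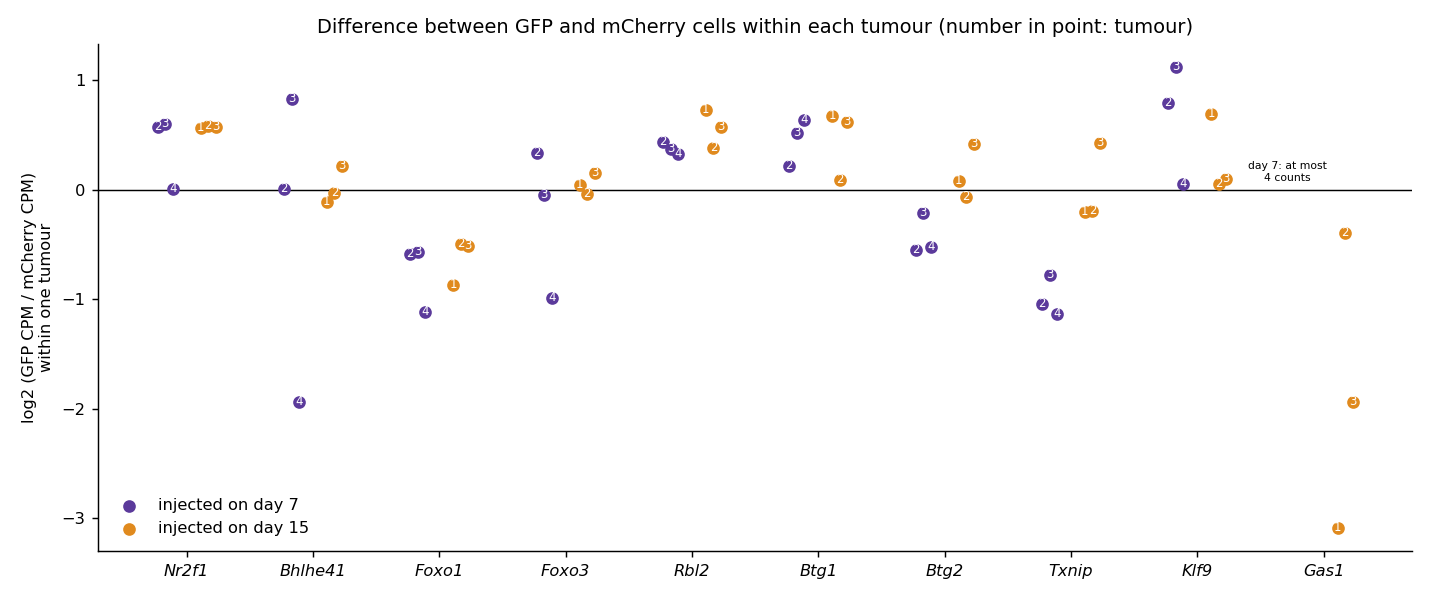
log2 ratio of GFP to mCherry CPM within each tumour, for the 10 regulators, with day 7 tumours (numbered 2 to 4) and day 15 tumours (1 to 3). Nr2f1 lay between 0.56 and 0.60 in 5 tumours and at 0.005 in day 7 tumour 4, and Txnip lay below 0 in all day 7 tumours and on both sides of 0 on day 15; Gas1 is not drawn for day 7, where no library held more than 4 counts.

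Btg1 (ENSMUSG00000036478, chr10:96617006-96622809, plus strand) and Btg2 (ENSMUSG00000020423, chr1:134075170-134079120, minus strand) encode antiproliferative proteins that bring the CCR4-NOT deadenylase to mRNAs and that together hold mouse T cells in quiescence. Btg1 was the regulator with the highest level per length of exon in 3 of the 5 groups. On day 7 GFP cells held 255, 306 and 257 CPM, against 219.6, 213 and 165 CPM in mCherry cells. On day 15 GFP cells held 468, 383 and 469 CPM, against 292, 361 and 306 CPM in mCherry cells. The colours overlapped on neither day. Btg1 rose on both days, by 0.46 ± 0.11 (adjusted p = 0.0188) and 0.45 ± 0.12 (adjusted p = 0.0209) on the log2 scale. The ratio within a tumour was lowest in day 15 tumour 2, at 1.06. Leaving out tumour 3 ended the call on each day, with an adjusted p of 0.163 on day 7 and 0.128 on day 15.

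Btg2, a p53 target and immediate early gene, went the other way on day 7 and not on day 15. On day 7 GFP cells of tumours 2, 3 and 4 held 83.3, 104 and 138 CPM, against 122, 119.7 and 198 CPM in mCherry cells. The groups overlapped, but GFP cells were below mCherry cells of their own tumour in 3 of 3 tumours, and the log2 fold change was −0.43 ± 0.11 (adjusted p = 0.0206). Without the block the adjusted p was 0.217, and it was 0.177 without tumour 2 and 0.0531 without tumour 3. On day 15 GFP cells held 115, 139 and 154 CPM, against 108, 145 and 115 CPM in mCherry cells (0.14 ± 0.10, adjusted p = 0.355). The difference between days was 0.57 ± 0.16 and did not pass (adjusted p = 0.206).

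Btg2 is induced within minutes of stress, as are the genes of the immediate early list. Of 15 immediate early and dissociation genes, none rose and 2 fell on day 7, and 6 rose and 2 fell on day 15. Their summed level was 4207 to 6132 CPM in GFP cells, against 4248 to 5763 CPM in mCherry cells on day 7, and 13428 to 14411 CPM in GFP cells, against 10444 to 14080 CPM in mCherry cells on day 15. Fos had a log2 fold change of 0.12 ± 0.10 on day 7 and 0.39 ± 0.10 on day 15. Their part in the values of Btg1, Btg2 and Klf9 was not tested.

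In the BTG/TOB and CCR4-NOT list, 1 of 14 genes rose and 2 fell on each day. Cnot6, a deadenylase of the complex, fell on both days (−0.43 ± 0.10 and −0.47 ± 0.08). Cnot9, another subunit of the complex, also fell on both days (−0.42 ± 0.09, adjusted p = 0.0129, and −0.38 ± 0.08, adjusted p = 0.0105, edgeR). Tob1, another antiproliferative member of the family, rose on day 15 to 157 ± 9.3 CPM in GFP cells, against 121 ± 13.9 CPM in mCherry cells (SD, n = 3; adjusted p = 0.00863), while its day 7 value was 0.08 ± 0.13.

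Txnip (ENSMUSG00000038393, chr3:96557957-96561883, plus strand) encodes an alpha-arrestin that binds thioredoxin and removes glucose transporters from the cell surface, and its transcription follows glucose through MondoA. It had the largest day 7 change of the 9 regulators tested, although without tumour 4 that of Klf9, at 0.96 ± 0.13, was larger than that of Txnip, at −0.90 ± 0.13. On day 7 GFP cells held 19.3, 24.2 and 24.7 CPM, against 39.7, 41.5 and 54.3 CPM in mCherry cells. Every GFP library lay below every mCherry library. The log2 fold change was −0.99 ± 0.13 (adjusted p = 0.000731). On day 15 the groups overlapped, with 47.8, 60.9 and 92.8 CPM in GFP cells, against 55.0, 69.8 and 69.1 CPM in mCherry cells, and the log2 fold change was 0.004 ± 0.12 (adjusted p = 0.986). GFP cells were lower in day 15 tumours 1 and 2 and higher in tumour 3, without which the value was −0.20 ± 0.12 (adjusted p = 0.304).

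The difference of the GFP effect between the days was tested over the 12 libraries of mixed tumours, where 0.211% of 16626 genes passed and 0 of the 10 regulators did (edgeR). At an unadjusted p under 0.05 there were 1703 of the 16626 genes, 2 of them regulators, Txnip and Btg2. For Txnip the difference was 0.99 ± 0.19 (adjusted p = 0.0623). The regulators other than Txnip and Btg2 lay between −0.39 for Klf9 and 0.28 for Foxo3, with adjusted p of 0.616 to 1.0. Gas1 is among them at 0.13 ± 0.74, but no day 7 library held more than 4 of its counts. Its day 7 effect could not be measured, so its value does not show whether the days differ. DESeq2, which called 153 genes where edgeR called 35, called Txnip as the only regulator (adjusted p = 0.00175). It was also called in edgeR without a filter on low counts (adjusted p = 1e-05), as was Btg2 (adjusted p = 0.0315). Day and sequencing run cannot be told apart in this contrast.

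Arrdc4, an alpha-arrestin that shares MondoA control with Txnip, fell on both days. It averaged 18.6 ± 4.1 CPM in GFP cells, against 39.1 ± 0.7 CPM in mCherry cells on day 7, and 20.7 ± 5.8 CPM and 30.8 ± 2.0 CPM on day 15 (SD, n = 3), with adjusted p of 0.0011 and 0.0121 (edgeR). Arrdc3, an alpha-arrestin linked to receptor turnover, rose on day 15 (0.53 ± 0.08), and Txnrd1, thioredoxin reductase, rose on both days (0.61 ± 0.12 and 0.27 ± 0.08). In this list of 12 genes, 2 rose and 1 fell on each day. The antisense gene Gm15441 holds at most 9 counts, 1.89% of those of Txnip.

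Klf9 (ENSMUSG00000033863, chr19:23141226-23168134, plus strand) encodes a Krüppel-like factor that the glucocorticoid receptor induces and that holds mouse neural stem cells in quiescence. On day 7 GFP cells held 37.6, 47.7 and 24.1 CPM, against 21.6, 21.9 and 23.3 CPM in mCherry cells. The groups did not overlap, but in tumour 4 the ratio was 1.03, against 1.74 and 2.17 in tumours 2 and 3. The log2 fold change was 0.66 ± 0.19 (adjusted p = 0.0371), and 0.43 ± 0.22 without tumour 3, where the call ended (adjusted p = 0.304). On day 15 GFP cells held 148, 122 and 116 CPM, against 92.0, 118 and 108 CPM in mCherry cells. They were higher in 3 of 3 tumours, at a ratio of 1.61 in tumour 1 and of 1.04 and 1.07 in tumours 2 and 3, and the value of 0.27 ± 0.12 did not pass (adjusted p = 0.144). It passed without a filter on low counts (adjusted p = 0.027) and without tumour 2 (0.40 ± 0.14, adjusted p = 0.0264), and it was 0.06 ± 0.08 without tumour 1 (adjusted p = 0.634).

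Of the glucocorticoid receptor and its targets, 1 of 9 tested rose and 3 fell on day 7, and 2 of 10 rose and 3 fell on day 15. Sgk1, a kinase induced by glucocorticoids, rose on both days. On day 7 it stood at 572 ± 25.1 CPM in GFP cells, against 282 ± 12.5 CPM in mCherry cells (SD, n = 3, with adjusted p = 0.000113, edgeR). Its day 15 log2 fold change was 0.82 ± 0.12 (adjusted p = 0.00135, edgeR). Ddit4, an inhibitor of mTORC1, fell on both days (−1.91 ± 0.37 and −0.68 ± 0.08). So did Fkbp5, a chaperone of the receptor and among its classic targets (−0.57 ± 0.14 and −0.64 ± 0.09). Nr3c1, which encodes the receptor, had 0.09 ± 0.11 on day 7 and 0.01 ± 0.14 on day 15.

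Gas1 (ENSMUSG00000052957, chr13:60174405-60177365, minus strand) encodes a membrane-anchored protein found in growth-arrested mouse fibroblasts, where it can block the cell cycle, and is also a coreceptor for hedgehog ligands. It was the regulator of lowest level in every group. On day 7 it had 1, 0 and 0 counts in GFP cells, against 1, 0 and 4 counts in mCherry cells, and was not tested. A count of 0 allows up to 3 counts, which is 0.150 to 0.319 CPM in these 6 libraries, a limit for counting error only. On day 15 it had 5, 20 and 14 counts in GFP cells (0.244, 0.866 and 0.575 CPM), against 47, 25 and 48 counts in mCherry cells (2.08, 1.14 and 2.20 CPM). The colours did not overlap, and the log2 fold change was −1.68 ± 0.48 (adjusted p = 0.033, edgeR). Leaving out tumour 1 ended the call (adjusted p = 0.0936), as did leaving out tumour 3 (adjusted p = 0.139).

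Of the other growth-arrest-specific and hedgehog genes, 2 of 13 rose and 1 fell on day 7, and 2 of 14 rose and 2 fell on day 15. Gas5, a long non-coding RNA that builds up in arrested cells, rose on both days, to 943 ± 85.8 CPM in GFP cells, against 631 ± 81.5 CPM in mCherry cells, on day 7 and to 453 ± 35.6 CPM, against 322 ± 35.0 CPM, on day 15 (SD, n = 3). Hhip, a hedgehog decoy receptor, rose on day 15 (0.81 ± 0.09, adjusted p = 0.0004, edgeR), and Gas2, a gene of growth-arrested fibroblasts that binds the cytoskeleton, fell on day 7 (−1.23 ± 0.29). Gas2 was low there, at 1.67 ± 0.60 CPM in GFP cells, against 3.91 ± 1.47 CPM in mCherry cells (SD, n = 3).

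**Figure D3:**
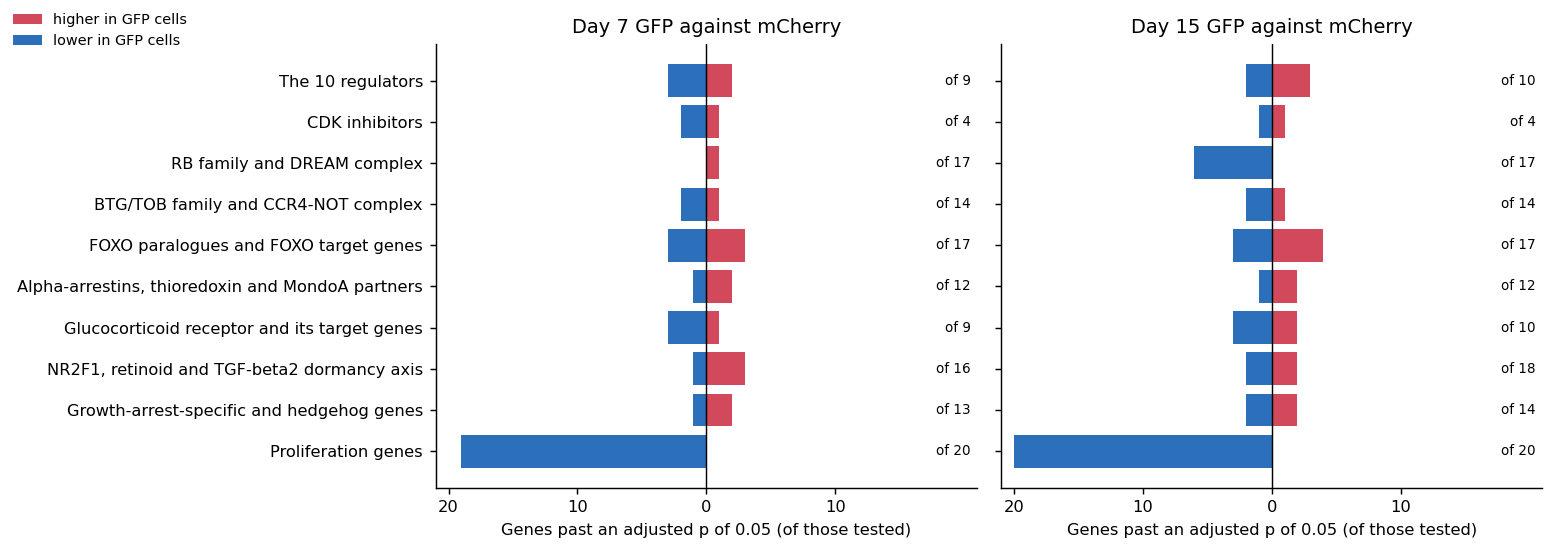
Number of genes past an adjusted p of 0.05, higher (right of 0) or lower (left of 0) in GFP than in mCherry cells, for the 10 regulators and 9 lists of related genes, with the number tested at the right of each panel. The proliferation genes lie almost wholly on the lower side (19 and 20 of 20), while the regulators and most related lists hold called genes on both sides.

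Markers of host cells moved with these comparisons. On day 7 all 13 macrophage and monocyte markers and all 10 tested endothelial markers were called lower in GFP libraries. The macrophage markers summed to 108 to 183 CPM in GFP libraries and 637 to 901 CPM in mCherry libraries, and the endothelial markers to 7.74 to 9.32 CPM and 31.2 to 65.6 CPM. On day 15, 6 of 10 macrophage markers and 4 of 12 endothelial markers were called lower, with sums of 54.7 to 72.9 CPM against 87.1 to 109.7 CPM for macrophages and 13.9 to 17.7 CPM against 18.5 to 43.7 CPM for endothelium. Endothelial Robo4 was at 0 in all day 7 GFP libraries, and no other macrophage or endothelial marker was at 0 throughout a group. Fibroblast and pericyte markers summed to 860.4 to 917 CPM in GFP libraries and 791 to 981 CPM in mCherry libraries on day 7, and to 1514 to 1759 CPM and 1269.7 to 1410.0 CPM on day 15. Of these markers, 2 of 8 tested were called lower and none higher on day 7 (median log2 fold change −0.52), and 5 of 11 lower and 1 higher on day 15 (median −0.74), so that on day 15 the sum and the median differed in direction. The marker higher on day 15, named after its values were seen, was Dcn (1.25 ± 0.09). Adipocyte markers were called lower for 2 of 2 tested on day 7, with sums of 0.400 to 0.601 CPM in GFP libraries and 2.81 to 4.64 CPM in mCherry libraries, and for 1 of 6 on day 15. Neutrophil markers were called lower for 1 of 3 on day 7 and 2 of 3 on day 15, where they summed to 1.31 to 4.15 CPM in GFP libraries and 2.62 to 17.9 CPM in mCherry libraries. T and NK cell markers summed to at most 24.0 CPM, with Cd4 at 0 in all day 7 GFP libraries, Prf1 in all day 15 GFP libraries, and Cd3d, Cd4, Cd8b1 and Gzmb in all day 15 mCherry libraries. The part of host cells in the falls of Foxo1, Txnip, Btg2 and Gas1 was not tested.

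Comparison of mCherry cells of day 15 tumours with those of control tumours asks whether untargeted cells next to T cell attack differ from cells of tumours never attacked. The controls also lacked GFP cells, and their age and injected cell number were not at hand. In both comparisons with controls, these and T cell attack cannot be told apart. Of the 10 regulators 0 passed, as did 0.0% of 14800 genes by edgeR. At an unadjusted p under 0.05 there were 2104 genes, 3 of them regulators, and DESeq2 called 262 genes and none of the regulators. Those 3 were Txnip (0.36 ± 0.13, adjusted p = 0.284), Nr2f1 (−0.39 ± 0.15, adjusted p = 0.309) and Rbl2 (−0.21 ± 0.09, adjusted p = 0.333). Of the others, Gas1 had −1.15 ± 0.59 and Btg2 −0.32 ± 0.24. Bhlhe41 had −0.18 ± 0.27, Foxo1 0.17 ± 0.15, Foxo3 0.11 ± 0.12, Klf9 0.18 ± 0.12 and Btg1 0.02 ± 0.14, and the adjusted p of these 7 lay between 0.399 and 0.969. Rbl2 was the regulator whose groups did not overlap, at 20.2, 22.9 and 24.5 CPM in day 15 mCherry cells, against 25.1, 26.9, 25.5 and 27.3 CPM in controls (14.4% of all genes did not overlap). Of 20 proliferation genes and 12 macrophage markers, 0 were called, with median log2 fold changes of 0.36 and −1.58. For day 15 GFP cells the proliferation median was −1.02 against mCherry cells and −0.575 against controls.

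GFP cells of day 15 tumours were set against the same controls to place the survivors beside unattacked cells. Klf9 and Rbl2 were called higher and Gas1 lower, 3 of 10 regulators, against 13.1% of 14801 genes (6.09% higher and 6.97% lower). The groups did not overlap for 3 of the 10 either, the same 3, against 29.9% of all genes. The comparison shares its controls with the one before and its GFP libraries with the within-tumour comparison. For Rbl2 the 3 GFP libraries, between 29.8 and 36.4 CPM, lay above all 4 controls (0.34 ± 0.09, adjusted p = 0.0381). Aktip, which shares exon bases with Rbl2, was also higher here (0.55 ± 0.09, adjusted p = 0.0128, edgeR), and which gene the shared reads came from was not tested. Klf9 stood at 148, 122 and 116 CPM in GFP cells, against 101, 96.6, 76.6 and 101 CPM in controls (0.46 ± 0.12, adjusted p = 0.0423), also without overlap. Gas1 stood at 0.244 to 0.866 CPM in GFP cells, against 1.36, 8.87, 2.88 and 2.93 CPM in controls (−2.81 ± 0.70, adjusted p = 0.0343). Each of these 3 calls ended when any one of the 3 GFP libraries was left out, with adjusted p of 0.05 to 0.106 for Rbl2, 0.0579 to 0.134 for Klf9 and 0.0768 to 0.119 for Gas1, in fits that called 1.85% to 5.9% of all genes. The Rbl2 call also ended without a filter on low counts (adjusted p = 0.0568). Leaving out control 1 or 2 ended the calls of Rbl2 and Klf9, and leaving out control 3 all of them (adjusted p of 0.0508 to 0.0821). Without control 2, which held 8.87 CPM, the Gas1 value was −2.06 ± 0.47. Of the 4 controls, control 2 also had the highest sums of endothelial markers (98.9 CPM) and macrophage markers (198 CPM). Its sum of fibroblast and pericyte markers was the lowest (1235 CPM). The part of host cells in the Gas1 value was not tested.

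Nr2f1, the regulator with the steadiest within-tumour difference on day 15, did not stand out against controls. Its 377 to 415 CPM in GFP cells lay within the range of the controls, which was 272 to 453 CPM (0.18 ± 0.15, adjusted p = 0.461). Its 256 to 278 CPM in mCherry cells of the same tumours overlapped only the lowest control. Foxo1 held 42.4 to 61.1 CPM in GFP cells, against 59.1 to 81.1 CPM in controls (−0.46 ± 0.15, adjusted p = 0.0797), and Btg1 held 383 to 469 CPM, against 249 to 389.8 CPM (0.47 ± 0.15, adjusted p = 0.0619). DESeq2 called both, with adjusted p of 0.0319 and 0.0111, as did edgeR without a filter on low counts (0.0384 and 0.0361), and Btg1 also passed without control 1 (adjusted p = 0.0302) and in the joint fit of run 2 (adjusted p = 0.0395). Txnip had 0.42 ± 0.21 (adjusted p = 0.199). Bhlhe41 held 19.6 to 31.1 CPM in GFP cells, against 20.9 to 41.6 CPM in controls (−0.19 ± 0.24, adjusted p = 0.625). Foxo3 held 77.6 to 81.1 CPM in GFP cells, against 58.3 to 79.4 CPM in controls (0.15 ± 0.11, adjusted p = 0.361), and Btg2 115 to 154 CPM, against 101 to 213 CPM (−0.18 ± 0.24, adjusted p = 0.644). Of the 20 proliferation genes, 15 fell against controls and none rose, and 9 of 12 macrophage markers fell, with summed levels in GFP libraries of 54.7 to 72.9 CPM, against 77.8 to 198 CPM in controls. Of 12 fibroblast and pericyte markers, 5 fell and 2 rose (median −0.92), with sums of 1514 to 1759 CPM in GFP libraries and 1235 to 1607 CPM in controls. The part of host cells in these values was not tested.

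**Figure D4:**
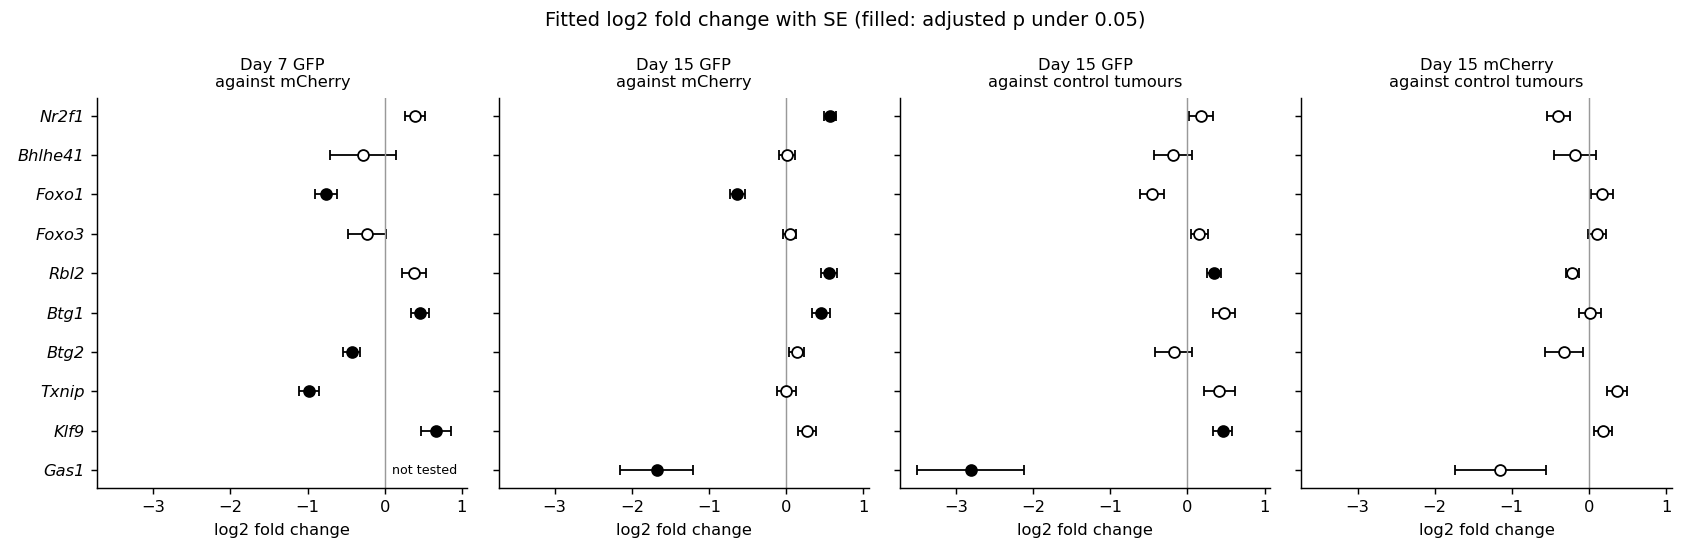
Fitted log2 fold change with SE of each regulator in 4 comparisons, each with the first-named group over the second; filled points passed an adjusted p of 0.05. Foxo1 lay below 0 and Btg1 above it in both comparisons of GFP with mCherry cells, and no point is filled in the comparison of day 15 mCherry cells with control tumours.

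Per kilobase of exon, Btg1, Nr2f1 and Btg2 held the 3 highest levels of the 10 regulators in all 5 groups, and Gas1 the lowest. In day 15 GFP cells the order by CPM per kilobase was Btg1 (83.3), Nr2f1 (78.0), Btg2 (49.6), Klf9 (26.7), Txnip (21.5), Foxo3 (10.5), Foxo1 (5.69), Rbl2 (4.40), Bhlhe41 (3.84) and Gas1 (0.190). Neighbours in this order whose ranges over the 3 libraries overlapped were Btg1 and Nr2f1, Klf9 and Txnip, and Rbl2 and Bhlhe41. In day 15 mCherry cells Foxo1, at 8.77 ± 1.56 CPM per kilobase, overlapped Foxo3, at 10.1 ± 0.9 (SD, n = 3), whereas in GFP cells the ranges of these paralogues were apart.

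Several regulators stood at other levels in the day 7 libraries than in those of run 2, in both colours. Foxo3 lay between 9.00 and 17.9 CPM in the 6 day 7 libraries, against 58.3 to 83.6 CPM in the 10 libraries of run 2. Nr2f1 lay between 71.1 and 111 CPM, against 256 to 453 CPM, and Klf9 between 21.6 and 47.7 CPM, against 76.6 to 148 CPM. Btg2 overlapped, with 83.3 to 198 CPM on day 7 and 101 to 213 CPM in run 2. No test was made of these levels, since day and run coincide.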

How the data were processed

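Gene expression was read from 16 bulk RNA-seq libraries. Per the labels' protocols, a sequencing company produced the raw gene counts for the authors, and the submitters' processing notes name mm10 as the genome. No aligner, counter, annotation or strand setting is given in the sources used here, and neither is the gate on CD45 in the sort. The authors' deposited DESeq2 results, per the file headers, give log2 fold changes of GFP over mCherry cells with standard errors, a Wald score, raw and adjusted p-value columns, and baseMean, a signal of mean normalized counts. In the authors' deposited table of each day the same 5 regulators pass an adjusted p of 0.05 as in the fits reported, and their log2 fold changes differ by at most 0.033 on day 7 and 0.069 on day 15.

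The tables list 49315 genes, and the 176 without a symbol (at most 0.011% of a library's counts) stayed out of library sizes and tests. Low genes were removed with filterByExpr of edgeR 4.0.16 in R 4.3.3 (minimum count 10, minimum total 15). Counts were scaled by TMM and tested with quasi-likelihood F-tests, with p-values adjusted by Benjamini and Hochberg over all genes tested and a threshold of 0.05. GFP and mCherry cells were compared with tumour as a block, since the series' design calls the mCherry cells paired controls. The pairing was checked by the correlation of residuals: it was 0.110 to 0.162 on day 7 and 0.0896 to 0.232 on day 15 within a tumour, against −0.130 to 0.00919 and −0.183 to 0.0186 between tumours. Residuals were taken about the mean of each colour on each day and so sum to 0 within it. Positive values within tumours therefore push those between tumours below 0, and the contrast is partly built in. For day 15 the labels give the pairs; for day 7, where columns run from 2 to 4 but labels from 1 to 3, only the shared column number does. Controls were compared without a block. The SE was taken from the fitted log2 fold change and its F statistic, as the size of the change divided by the root of that statistic. Replicates varied beyond counting error (chi-square per degree of freedom 4.94 to 80.4), so the spread between tumours sets the errors. The test was tried on simulated counts with known changes.

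Gene positions and exon lengths are those of GENCODE M21 (GRCm38). All 10 regulators are described in every comparison of groups, with the 2 genes of smallest p of each related list in the within-tumour comparisons and a few named genes. The members and lists were chosen with earlier results of these data known. Itgam, with 2 rows, was left out of its list. Alternatives tried were a DESeq2 1.42.0 fit, DESeq2 size factors within edgeR, no filter on low counts, a minimum count of 50, no block, a joint fit of run 2, and leaving out each tumour or library.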

Additional observations from a re-analysis of the deposited data

How the results depend on the processing

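Across 120 refits of the 13 called results of the regulators, all 120 kept the sign and 93 the call. Foxo1 on both days, Txnip on day 7, and Nr2f1 and Rbl2 on day 15 kept their calls in every alternative run, the fits with no replicate block included. Without the block, the call of Btg2 on day 7 ended (−0.43, adjusted p = 0.217), and no other within-tumour call of a regulator did. The joint fit of run 2, which also has no block, ended the day 15 calls of Btg1 (adjusted p = 0.0636) and Gas1 (adjusted p = 0.134). Without a filter the call of Rbl2 against controls ended (adjusted p = 0.0568). Gas1 could not be fitted on day 15 within tumours or in the difference between days at a minimum count of 50. The causes were not tested.

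The counts of called genes over all genes moved most in the comparisons with controls and between days. DESeq2 called 262 genes for day 15 mCherry cells against controls, where edgeR called 0, and 2953 for day 15 GFP cells against controls. For the difference between days it called 153 genes, while edgeR called 354 without a filter, 14 at a minimum count of 50 and 2 without the block. Leaving out a tumour or library gave 1156 to 4558 genes on day 7 (1156 without tumour 3, 1753 without tumour 2 and 4558 without tumour 4) and 1736 to 2546 on day 15, the lowest without tumour 3. It gave 0 to 7 for day 15 mCherry cells against controls, 287 to 2093 for GFP cells against controls, and 3 to 126 for the difference between days.

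Values that turned sign were all of results that had not passed. Bhlhe41 on day 15 was −0.00825 without the block and −0.00206 in the joint fit. Btg1 in day 15 mCherry cells against controls was −0.00384 without a filter. Btg1 in the difference between days was 0.0176 in DESeq2 and with its size factors, 0.00349 without a filter, 0.0158 at a minimum count of 50 and 0.00283 without the block. On leaving out tumours, Bhlhe41 ran from −0.91 to 0.43 on day 7 and from −0.0723 to 0.0769 on day 15. Foxo3 ran from −0.501 to 0.142 on day 7 and from −3.66e-05 to 0.103 on day 15, and Txnip on day 15 from −0.203 to 0.118. Against controls, Bhlhe41 ran from −0.341 to 0.0228 in GFP cells and from −0.359 to 0.0382 in mCherry cells, Btg2 from −0.339 to 0.0176 in GFP cells and Btg1 from −0.0813 to 0.122 in mCherry cells. In the difference between days the ranges were −0.397 to 0.902 for Bhlhe41, −0.0332 to 0.241 for Foxo1, −0.0722 to 0.559 for Foxo3, −0.123 to 0.186 for Btg1 and −2.58 to 2.99 for Gas1. On day 7 the depth left Gas1 at no more than 4 counts in any library, too few to test.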
